A study of Homo sapiens with 3 samples.

Results

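The cytosolic chaperonin CCT, also called TRiC, is built from 8 related subunits encoded by TCP1, CCT2, CCT3, CCT4, CCT5, CCT6A, CCT7 and CCT8. These genes were taken from the deposited table by name; 8 of 8 were found among 58735 genes, and 8 of 8 passed the filter of a mean of at least 1 FPKM that left 13852 genes to test. FPKM is the number of fragments per kilobase of gene, scaled to library size. RNA was sequenced from HGC-27 cells, a human line derived from gastric cancer, in 2 libraries carrying a hairpin against the deubiquitinase gene USP16 (shUSP16-1 and shUSP16-2, genotype label shUSP16) and 1 library carrying a scrambled control hairpin (shControl, genotype label WT). The protocol text that the 3 libraries share includes dexamethasone, isobutylmethylxanthine and insulin; whether these cells received them is unclear. Whether the numbers 1 and 2 stand for different hairpins, cultures or repeats is not in the labels. The p-values therefore reflect the spread of these samples alone, possibly a technical spread, and every difference rests on 1 control library.

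CCT is a barrel of stacked rings in which each subunit type has its own place in a ring. A newly made protein enters the chamber, the lid closes as ATP is hydrolysed, and the protein folds inside; actin and tubulin depend on it, and so do many WD40-repeat proteins such as CDC20. Prefoldin hands unfolded actin and tubulin to the barrel, and phosducin-like proteins act as cofactors. Because every ring needs every subunit, loss of a single subunit type impairs the whole complex.

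Depth and identity of the libraries were as follows. Whole reads could be recovered from the deposited values and came to 29530581 in shUSP16-1, 31187845 in shUSP16-2 and 30131136 in shControl. USP16 itself stood at 4.29 and 5.98 FPKM in shUSP16-1 and shUSP16-2, against 6.28 FPKM in shControl. In the library labelled shUSP16-2 the ratio of USP16 to shControl was 0.952 with the authors' scaling (exact binomial 95% interval 0.875 to 1.04) and 0.876 with libraries scaled by sums of reads (0.805 to 0.953). In shUSP16-1 it was 0.683 (0.621 to 0.749) and 0.639 (0.582 to 0.702). These intervals, and those below, cover counting error only. Of the epithelial markers EPCAM, KRT8, KRT18, KRT19 and CDH1, 0 of 5 reached a mean of 1 FPKM, and 0 of 7 gastric mucosa markers did, with MUC5AC, TFF1 and TFF2 at 0 reads in every library. Of the mesenchymal markers 2 of 4 reached a mean of 1 FPKM and 1 was under 1 FPKM in every library; the highest, VIM, an intermediate filament gene, was at 159 and 180 FPKM in shUSP16-1 and shUSP16-2 and at 155 FPKM in shControl. Adipocyte markers reached a mean of 1 FPKM for 0 of 6 and leukocyte markers for 0 of 4, and 5 of 5 fibroblast markers did, with a summed level of 114 and 145 FPKM in shUSP16-1 and shUSP16-2 and 104 FPKM in shControl; their part in the results was not tested.

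Sequence before the RefSeq start of 4 subunit genes is shown because of the range of differences described next and because of position. CCT2 differed most from shControl in shUSP16-2, CCT8 in shUSP16-1, and CCT7 was among the least in both. TCP1 starts beside another gene, and CCT8 is the chromosomal neighbour of USP16. Each stretch is the part of the RefSeq promoter window (250 bases before to 50 after the annotated start, build GRCh38.p14) that lies before the RefSeq start and holds no exon of GENCODE release 29, written 5′ to 3′ on the strand of the subunit gene. Capitals mark CCAAT boxes (CCAAT, or ATTGG on the other strand) and GC boxes (GGGCGG, or CCGCCC on the other strand); the stretches of CCT2 and CCT7 hold neither. The stretches of TCP1, CCT8 and CCT2 also lie before the start of the gene in GENCODE, whose coordinates are used below, but that of CCT7 begins 638 bases after the GENCODE start of CCT7 and so lies in an intron of that annotation.
TCP1 (chr6:159789750-159789811, minus strand): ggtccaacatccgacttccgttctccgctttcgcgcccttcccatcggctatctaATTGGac
CCT8 (chr21:29073798-29073898, minus strand): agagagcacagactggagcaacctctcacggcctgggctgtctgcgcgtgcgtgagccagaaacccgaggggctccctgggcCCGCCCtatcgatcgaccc
CCT2 (chr12:69585209-69585333, plus strand): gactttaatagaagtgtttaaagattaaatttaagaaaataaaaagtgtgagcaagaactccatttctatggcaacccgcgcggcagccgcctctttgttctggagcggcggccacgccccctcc
CCT7 (chr2:73234058-73234235, plus strand): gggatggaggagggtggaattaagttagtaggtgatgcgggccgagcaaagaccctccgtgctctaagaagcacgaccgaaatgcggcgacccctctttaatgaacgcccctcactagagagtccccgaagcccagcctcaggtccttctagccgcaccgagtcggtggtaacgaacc
Windows were given for 7 of the 8 genes, 9 windows in all, since CCT2 and CCT4 have alternative starts. Searched over the whole windows on both strands, the CCAAT box was in those of TCP1, CCT2, CCT3 and CCT8 and the GC box in those of TCP1, CCT2, CCT3, CCT7 and CCT8; 34.6% and 45.0% of all 35116 windows hold these letters. GAANNTTC, a pair of inverted heat shock element units, was found in the windows of TCP1 and CCT2 (6.77% of all windows), and TTCNNGAA, the units in the other order, in CCT4 alone (7.74% of all windows). CACGTG, the E-box, was found in 0 of the 9 windows and in 7.26% of all. A match is a run of letters and not a measured binding site.

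All 8 subunit mRNAs were higher in shUSP16-1 and in shUSP16-2 than in shControl. The ratio to shControl lay between 1.15 for CCT4 and 1.34 for CCT8 in shUSP16-1, and between 1.23 for CCT7 and 1.55 for CCT2 in shUSP16-2. Their summed level was 701 FPKM in shUSP16-1 and 784 FPKM in shUSP16-2, against 561 FPKM in shControl, and their reads made up 0.275% and 0.304% of the shUSP16-1 and shUSP16-2 libraries, against 0.234% of shControl. In bulk RNA, more cells that express a gene and more RNA per cell cannot be told apart. shControl was below both libraries labelled shUSP16 for 8 of 8 subunits and for 44.9% of all tested genes. Among the 7639 genes averaging 5 FPKM or more, shControl was below both for 58.2%. The 8 of 8 held with libraries scaled by sums of reads (31.3% of tested genes) and by the median ratio (37.9%). In both libraries 5 of 8 subunits were at least 25% above shControl, where 9.54% of tested genes were, or 10.9% of genes averaging 5 FPKM or more. That count was 1 of 8, CCT8, with sums of reads (5% of tested genes) and 3 of 8 with the median ratio (6.9%). At least 1.5 times shControl in both were 0 of 8 subunits and 2.04% of tested genes.

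**Figure D1:**
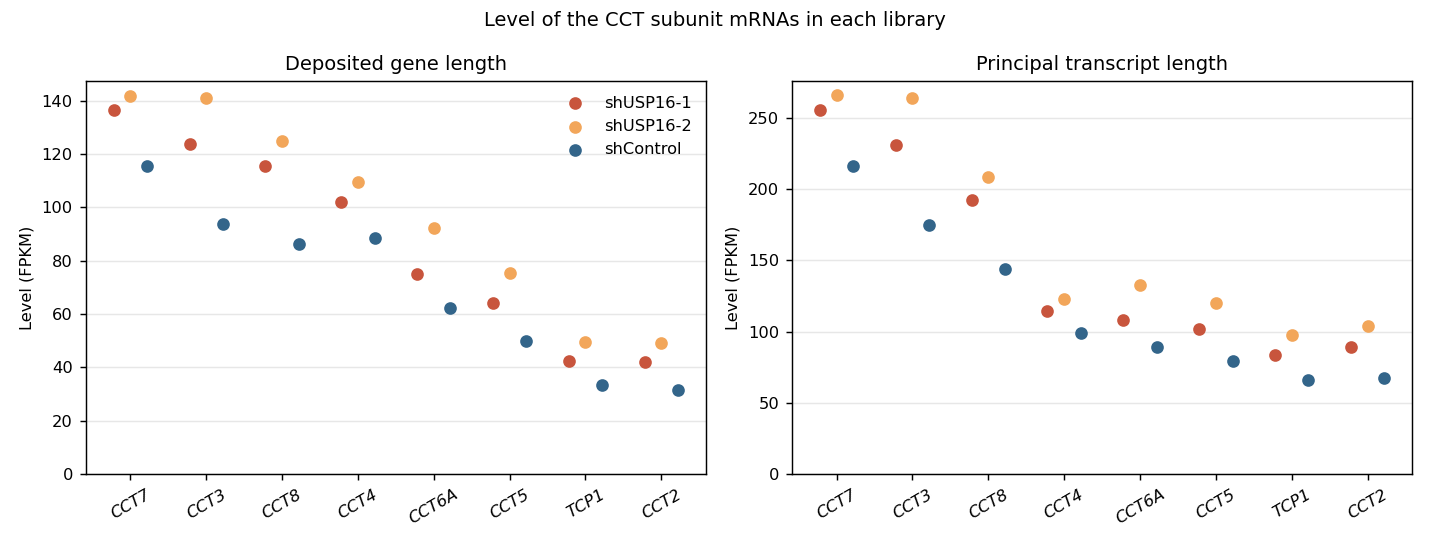
Level of each CCT subunit mRNA in FPKM (y axis) in shUSP16-1, shUSP16-2 and shControl, 1 point per library, with the deposited gene length (left) and the principal transcript length (right). In both panels the shControl point is the lowest and the shUSP16-2 point the highest for each of the 8 genes, and CCT7 is the most abundant, at 136, 142 and 115 FPKM on the deposited length.

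None of these differences passed the test over all genes. limma, which fits every gene and borrows the spread between the 2 libraries labelled shUSP16 across genes, called 0 of 8 subunits and 0 of 13852 genes (0% of tested genes) at an adjusted p under 0.05. At an unadjusted p under 0.05 it had 6 of the 8, all higher, against 8.71% of tested genes that were higher. With 3 libraries an exact permutation test cannot go below a one-sided p of 0.333. The median limma difference of the 8 subunits was 0.46 on the log2 scale, beside 0.042 over all tested genes and 0.11 over genes averaging 5 FPKM or more. The limma voom method on the recovered reads, with the authors' library totals, called CCT2 (adjusted p = 0.0490) and CCT3 (adjusted p = 0.0479), 2 of 8 subunits, where it called 1.47% of tested genes higher. Run on sums of reads, voom called 0 of 8, and 1% of tested genes as higher. A limma fit of the protein-coding genes by themselves called 0 of 8, and 0.154% of those genes as higher.

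Subunits are taken here by their place in the ring. In yeast, Cct1, Cct2, Cct4 and Cct5 form the side that binds ATP more tightly, and Cct3, Cct6, Cct7 and Cct8 the side that binds it more weakly. Of the first side, TCP1 encodes the alpha subunit, which gave the complex its name (ENSG00000120438, chromosome 6, 159778498 to 159789749, minus strand, GRCh38 as for all coordinates of genes). It had 42.4 FPKM in shUSP16-1 and 49.4 FPKM in shUSP16-2, against 33.4 FPKM in shControl, from 6251, 7554 and 5356 reads. The ratio was 1.27 (1.23 to 1.32) in shUSP16-1 and 1.48 (1.43 to 1.53) in shUSP16-2, and limma gave a log2 difference of 0.45 with an SE of 0.14 (adjusted p = 0.299). Both intervals lie above 1 and do not overlap each other.

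CCT2, the beta subunit (ENSG00000166226, chromosome 12, 69585334 to 69601570, plus strand), had 42.0 FPKM in shUSP16-1 and 49.0 FPKM in shUSP16-2, against 31.7 FPKM in shControl. Its ratio of 1.55 (1.49 to 1.61) in shUSP16-2 was the highest of the 8 subunits there, beside 1.33 (1.27 to 1.38) in shUSP16-1. The interval in shUSP16-2 overlapped those of TCP1, CCT3, CCT5 and CCT6A. The limma difference was 0.50 with an SE of 0.14 (adjusted p = 0.292), and 0.52 in voom with the authors' totals. Over the 10 alternatives with a test, the adjusted p of CCT2 ran from 0.0490 to 0.786.

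CCT4, the delta subunit (ENSG00000115484, chromosome 2, 61868089 to 61888804, minus strand), differed least in shUSP16-1, with 102 FPKM there and 110 FPKM in shUSP16-2, against 88.4 FPKM in shControl. Its ratios were 1.15 (1.12 to 1.19) in shUSP16-1 and 1.24 (1.20 to 1.28) in shUSP16-2, and the limma difference was 0.26 with an SE of 0.11 (adjusted p = 0.376). On sums of reads CCT4 stood at 1.08 times shControl (1.05 to 1.11) in shUSP16-1 and at 1.14 times (1.11 to 1.17) in shUSP16-2. CCT5, the epsilon subunit (ENSG00000150753, chromosome 5, 10249921 to 10266412, plus strand), had 64.2 FPKM in shUSP16-1 and 75.5 FPKM in shUSP16-2, against 49.96 FPKM in shControl. The limma difference of CCT5 was 0.47 with an SE of 0.14 (adjusted p = 0.295), so CCT4 and CCT5, both placed on the tightly binding side, differed from shControl by unequal amounts; the difference between them was not tested.

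Of the other side, CCT3, the gamma subunit (ENSG00000163468, chromosome 1, 156308968 to 156367873, minus strand), had 124 FPKM in shUSP16-1 and 141 FPKM in shUSP16-2, against 93.6 FPKM in shControl. Behind these values were 14835, 17568 and 12240 reads, and the ratios were 1.32 (1.29 to 1.35) in shUSP16-1 and 1.51 (1.47 to 1.54) in shUSP16-2. The limma difference was 0.49 with an SE of 0.13 (adjusted p = 0.280), and over the 10 alternatives with a test the adjusted p ran from 0.0479 to 0.747. CCT3 and CCT2 were the subunits that voom called.

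CCT6A, the zeta subunit found in most tissues (ENSG00000146731, chromosome 7, 56051630 to 56063989, plus strand), differed most between the libraries that share a label. It had 75.2 FPKM in shUSP16-1 and 92.3 FPKM in shUSP16-2, against 62.3 FPKM in shControl, and shUSP16-2 was at 1.23 times shUSP16-1 (1.19 to 1.26). The limma difference was 0.41 with the largest SE of the 8, 0.16 (adjusted p = 0.337). CCT6B, a paralog of CCT6A known for its expression in testis, was at 0.278 and 0.305 FPKM in shUSP16-1 and shUSP16-2 and at 0.319 FPKM in shControl, and CCT8L2 had 0 reads in all 3 libraries.

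CCT7, the eta subunit (ENSG00000135624, chromosome 2, 73233420 to 73253021, plus strand), was the most abundant on either length and differed little. It had 136 FPKM in shUSP16-1 and 142 FPKM in shUSP16-2, against 115 FPKM in shControl, with ratios of 1.18 (1.15 to 1.21) and 1.23 (1.20 to 1.26). Its limma difference was 0.27 with an SE of 0.11 (adjusted p = 0.347). CCT7 was also the subunit in which the 2 libraries labelled shUSP16 lay closest together, shUSP16-2 being at 1.04 times shUSP16-1 (1.02 to 1.06), and with sums of reads that interval took in 1 (0.998 to 1.04).

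CCT8, the theta subunit (ENSG00000156261, chromosome 21, 29055805 to 29073797, minus strand), lies next to the targeted gene. USP16 runs from 29024629 to 29054488 on the plus strand, so the 3′ ends of the genes face each other across 1316 bases. CCT8 had 115 FPKM in shUSP16-1 and 124.9 FPKM in shUSP16-2, against 86.4 FPKM in shControl, from 11520, 12938 and 9398 reads. The ratio of 1.34 (1.30 to 1.37) in shUSP16-1 was the highest of the 8 subunits in that library, the library in which USP16 was lowest. Its interval overlapped those of TCP1, CCT2, CCT3 and CCT5 there, so this rank is not settled by the reads. In shUSP16-2 CCT8 was at 1.45 (1.41 to 1.48). The limma difference of CCT8 was 0.47 with an SE of 0.11 (adjusted p = 0.280), and that of USP16 was -0.26 with an SE of 0.20 (adjusted p = 0.564).

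**Figure D2:**
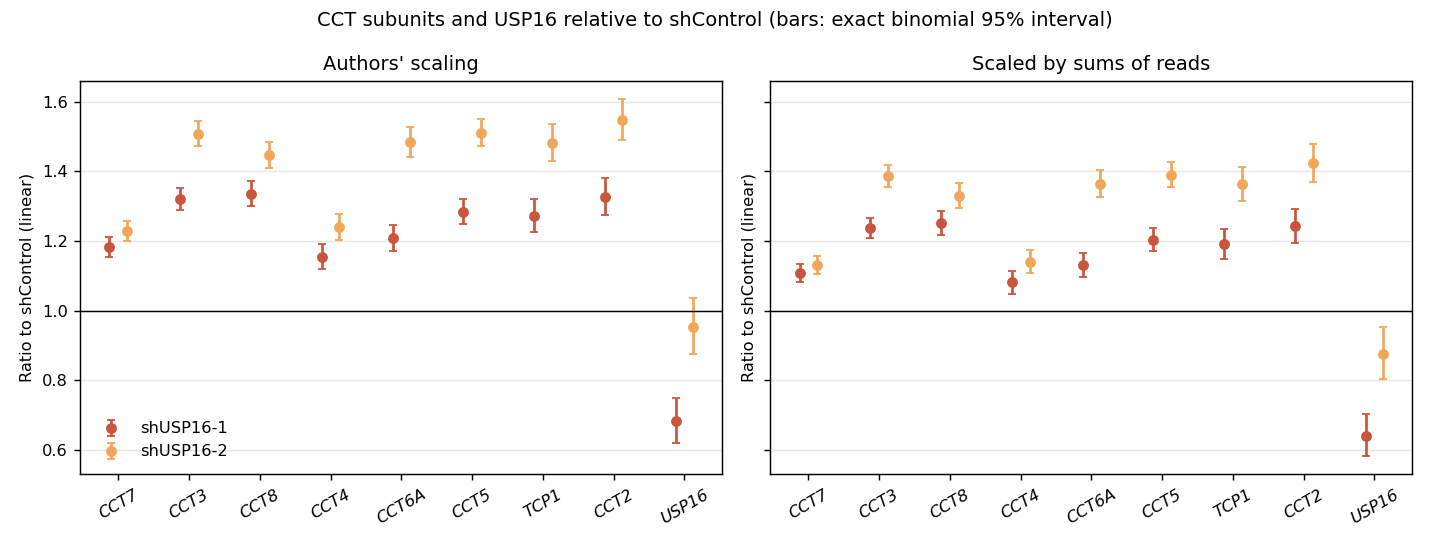
Ratio to shControl (y axis, linear) of each CCT subunit and of USP16 in shUSP16-1 and shUSP16-2, with the authors' scaling (left) and with libraries scaled by sums of reads (right); bars are exact binomial 95% intervals for counting error only. Every CCT interval lies above 1 in both panels, and CCT4 and CCT7 are the lowest subunits in shUSP16-2. On sums of reads the ratios run from 1.08 (1.05 to 1.11) for CCT4 in shUSP16-1 to 1.42 (1.37 to 1.48) for CCT2 in shUSP16-2.

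The libraries labelled shUSP16 were not alike in size. shUSP16-2 was above shUSP16-1 for 8 of 8 subunits, where 52.2% of tested genes were, and the median log2 difference from shControl was 0.35 in shUSP16-1 and 0.56 in shUSP16-2, beside 0.041 and 0.043 over all tested genes. USP16 had the opposite order, being lower in shUSP16-1 than in shUSP16-2. Taking each library alone with the authors' scaling, 5 of 8 subunits were at least 25% above shControl in shUSP16-1 (15.4% of tested genes) and 6 of 8 in shUSP16-2 (19.4%). At 1.5 times shControl there were 0 of 8 in shUSP16-1 (4.16%) and 3 of 8 in shUSP16-2 (5.22%), namely CCT2, CCT3 and CCT5. These counts depend on the scaling. On sums of reads CCT2, CCT3 and CCT5 stood at 1.42, 1.39 and 1.39 times shControl in shUSP16-2, and no subunit reached 1.5 times. In shUSP16-1 CCT8 alone was then at least 25% above shControl, but only just, at 1.251 (1.22 to 1.29). CCT2 at 1.24 (1.19 to 1.29) and CCT3 at 1.24 (1.21 to 1.27) lay just under that size, with overlapping intervals. In shUSP16-2 the subunits at least 25% above shControl were the same as with the authors' scaling. CCT4 and CCT7 were less than 25% above shControl in each library, and CCT6A lay on different sides of that size, with 1.21 in shUSP16-1 and 1.48 in shUSP16-2.

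**Figure D3:**
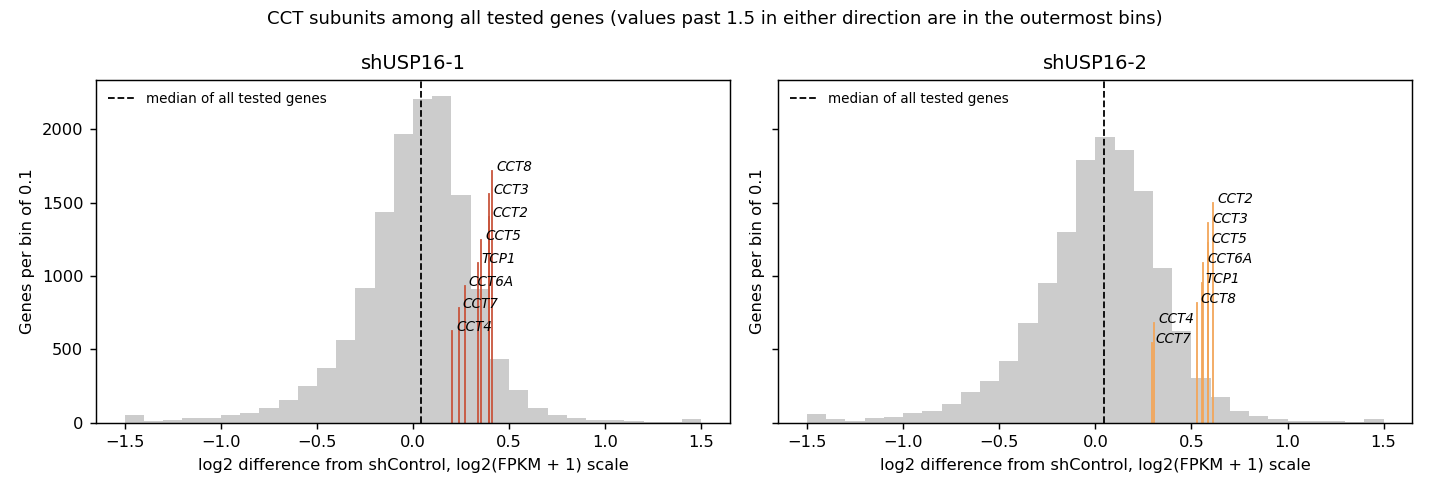
Number of tested genes per bin of 0.1 (y axis) by log2 difference from shControl on the log2(FPKM + 1) scale (x axis), in shUSP16-1 (left) and shUSP16-2 (right); lines mark the 8 CCT subunits and the dashed line the median of all 13852 tested genes. The subunits lie from 0.21 to 0.41 in shUSP16-1 and from 0.30 to 0.61 in shUSP16-2, to the right of the medians of 0.041 and 0.043.

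The subunits occupy equal places in the complex, but their mRNA levels per kilobase spanned a range of 3.25 and 2.89 times in shUSP16-1 and shUSP16-2, and of 3.64 times in shControl. Averaged over the 3 libraries the order of levels was CCT7, CCT3, CCT8, CCT4, CCT6A, CCT5, TCP1 and CCT2. Among the libraries labelled shUSP16, the values of CCT7 and CCT3 overlapped, as did those of CCT3 and CCT8, of CCT6A and CCT5, and of TCP1 and CCT2, but within each of the 3 libraries CCT7 was above CCT3, CCT3 above CCT8, CCT6A above CCT5 and TCP1 above CCT2. CCT8 and CCT4 did not overlap between the libraries labelled shUSP16, at 115 and 124.9 FPKM for CCT8 and 102 and 110 FPKM for CCT4 in shUSP16-1 and shUSP16-2, but in shControl CCT4 was slightly the higher of them, at 88.4 FPKM beside 86.4 FPKM for CCT8. Every subunit was above at least 92.6% of tested genes in every library.

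The deposited gene lengths add up the exons of all transcripts and exceed the principal transcript of each subunit gene in GENCODE release 29, for CCT5 with 5839 against 3675 bases and for CCT4 with 2830 against 2520 bases. Per kilobase of principal transcript, an alternative added after seeing the data, the order kept 6 of its 8 places and TCP1 and CCT2 changed theirs. CCT7 was then at 256 and 266 FPKM in shUSP16-1 and shUSP16-2 and at 216 FPKM in shControl, and TCP1, the lowest, at 83.7 and 97.5 FPKM in shUSP16-1 and shUSP16-2 and at 65.8 FPKM in shControl. CCT4 came out close to CCT6A, with 115 and 123 FPKM in shUSP16-1 and shUSP16-2 for CCT4 and 108 and 132 FPKM for CCT6A. Ratios between libraries do not depend on the length.

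Shares of the summed level shifted little. CCT7 made up 19.5% of the summed FPKM of the 8 subunits in shUSP16-1 and 18.1% in shUSP16-2, against 20.6% in shControl. CCT4 made up 14.6% and 13.98% in shUSP16-1 and shUSP16-2, against 15.8% in shControl. CCT3 was at 17.6% and 18.0% in shUSP16-1 and shUSP16-2, against 16.7% in shControl. The smallest contributors, TCP1 and CCT2, stayed between 5.65% and 6.31% in all 3 libraries.

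Of 13 annotated pseudogenes of the subunit genes, 7 had any read and 3 had a mean of at least 1 FPKM, so few reads were assigned to these copies. CCT6P1, a transcribed copy of CCT6A on chromosome 7, was at 10.5 and 11.6 FPKM in shUSP16-1 and shUSP16-2 and at 10.1 FPKM in shControl, and CCT6P3 at 2.48 and 2.26 FPKM in shUSP16-1 and shUSP16-2 and at 2.31 FPKM in shControl. CCT8P1 had 81 and 119 reads in shUSP16-1 and shUSP16-2, against 75 reads in shControl. Since reads may be split between CCT6A and its copies, the 3 genes were summed, after seeing the data: the ratio to shControl was 1.19 (1.16 to 1.23) in shUSP16-1 and 1.44 (1.41 to 1.49) in shUSP16-2, beside 1.21 and 1.48 for CCT6A alone.

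By GENCODE starts, several subunit genes share their start region with a gene on the other strand. These neighbours were chosen by position, within 2000 bases, after values were seen. TCP1 starts 62 bases from MRPL18, which encodes a mitochondrial ribosomal protein; the stretch printed for TCP1 is this whole gap. MRPL18 was at 35.4 and 34.0 FPKM in shUSP16-1 and shUSP16-2, against 28.7 FPKM in shControl, a log2 difference of 0.29 and 0.24 beside 0.34 and 0.55 for TCP1. CCT5 starts 23 bases from FAM173B in GENCODE, but the stretch before its RefSeq start begins 525 bases after that GENCODE start. FAM173B had log2 differences of 0.21 in shUSP16-1 and 0.37 in shUSP16-2, beside 0.35 and 0.59 for CCT5. CCT6A starts 25 bases from PSPH, encoding the last enzyme of serine synthesis, which had log2 differences of 0.15 and 0.35, beside 0.27 and 0.56 for CCT6A.

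CCT7 lies 181 bases from PRADC1, whose log2 differences were 0.096 in shUSP16-1 and 0.014 in shUSP16-2, beside 0.24 and 0.30 for CCT7. CCT4 overlaps the start of COMMD1 by 81 bases, and COMMD1 had log2 differences of 0.012 and 0.22, beside 0.21 and 0.31 for CCT4. Pairs counted were those with GENCODE starts side by side on opposite strands and a partner averaging 1 FPKM or more. The partner was higher than shControl in both libraries in 5 of 5 pairs with the authors' scaling, where 44.9% of tested genes were. With sums of reads this held in 3 of 5, where 31.3% of tested genes were. COMMD1 was then at 0.946 of shControl in shUSP16-1 and PRADC1 at 0.930 in shUSP16-2. The log2 difference of the partner was below that of the subunit gene in each library. TSACC, on the other strand inside CCT3 and averaging under 1 FPKM, was not counted. The stretch before the RefSeq start of CCT3 begins 29371 bases after its GENCODE start and lies within TSACC. TSACC had 29 and 34 reads in shUSP16-1 and shUSP16-2, against 39 in shControl, with FPKM ratios of 0.81 and 0.92. limma called 0 of the partners, where it called 0% of tested genes, with adjusted p from 0.374 for MRPL18 to 0.854 for PRADC1. SUMF2, which begins 12 bases after the end of CCT6A on the same strand, was at 29.6 and 32.5 FPKM in shUSP16-1 and shUSP16-2 and at 31.0 FPKM in shControl.

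The strand setting of the counting was not found in the labels or headers, so reads of overlapping genes on opposite strands cannot be told apart. TCP1 overlaps the end of ACAT2, an acetyl-CoA acetyltransferase gene, by 558 bases; ACAT2 had 681 and 893 reads in shUSP16-1 and shUSP16-2 and 619 in shControl, few beside those of TCP1. AC107081.2, antisense within CCT4, went the other way from CCT4 on 43 and 44 reads in shUSP16-1 and shUSP16-2 against 66 in shControl. The small nucleolar RNA genes inside TCP1 and CCT6A had at most 10 reads in any library.

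The prefoldin and phosducin-like genes that work with CCT, and the R2TP and prefoldin-like genes, had smaller median differences from shControl than the subunits. All counts of genes higher or lower in both libraries stand beside 44.9% higher and 32.4% lower of tested genes with the authors' scaling, and 31.3% higher and 45.4% lower with sums of reads. Of the prefoldin subunits 4 of 6 were higher and 1 of 6 was lower in both, against 2 and 2 with sums of reads; the median log2 difference was 0.050 in shUSP16-1 and 0.16 in shUSP16-2. PFDN6 had log2 differences of 0.25 and 0.36 and VBP1, prefoldin 3, of 0.21 and 0.42, while PFDN1 stood at -0.020 and -0.052. Of the phosducin-like and thioredoxin-like cofactors 3 of 4 were tested and 3 were higher in both, or 1 with sums of reads, PDCL3 at 0.14 and 0.36 and TXNDC9 at 0.033 and 0.18. Of the R2TP and prefoldin-like cochaperones, which help assemble RNA polymerases and other large complexes, 6 of 8 were higher in both, or 4 with sums of reads, with UXT at 0.37 and 0.34 and RUVBL2 at 0.25 and 0.25. limma and voom with either total called 0 members of these lists, where voom called 1.47% of tested genes higher with the authors' totals and 1% with sums of reads.

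Among the proteins that CCT folds, tubulin genes varied widely. Of 14 actin and tubulin genes 11 were tested, 8 were higher and 1 was lower in both libraries (7 and 3 with sums of reads), and the median was 0.12 in shUSP16-1 and 0.31 in shUSP16-2. TUBA1B, a major alpha tubulin, was at 76.9 and 98.2 FPKM in shUSP16-1 and shUSP16-2, against 56.5 FPKM in shControl, and was called by voom with either total (adjusted p = 0.0282 with the authors' totals and 0.0315 with sums of reads) but not by limma (adjusted p = 0.292). TUBB was at 298 and 371 FPKM in shUSP16-1 and shUSP16-2, against 248 FPKM in shControl, and TUBB2B and TUBA1C also lay above shControl, with log2 differences of 0.29 and 0.55 for TUBB2B and 0.33 and 0.49 for TUBA1C. TUBB4A stood at -0.039 and -0.16. ACTB, beta actin, was at 727 and 844 FPKM in shUSP16-1 and shUSP16-2, against 680 FPKM in shControl, and ACTG1 at 394 and 448 FPKM, against 395 FPKM. Tubulin genes of the same family, alpha or beta, are close in sequence, so reads may be split among genes within a family.

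The tubulin cofactors, which act on tubulin after CCT, were higher in both for 3 of 6 tested and lower in both for 3 (2 and 3 with sums of reads). TBCA, at log2 differences of 0.20 and 0.23, and ARL2, at -0.073 and -0.36, went opposite ways. Of 17 other reported clients 10 were higher and 3 lower in both (8 and 7 with sums of reads), with medians of 0.10 and 0.097. CCNE1, cyclin E1, was at 4.74 and 3.93 FPKM in shUSP16-1 and shUSP16-2, against 2.61 FPKM in shControl, PPP4C, a phosphatase catalytic subunit, had log2 differences of 0.41 and 0.33, and GNB1, a G protein beta subunit, of 0.38 and 0.30. CDC20, the mitotic activator that CCT folds, chosen after its values were seen, was at 125.2 and 142 FPKM in shUSP16-1 and shUSP16-2, against 107 FPKM in shControl. limma and voom called 0 of the tubulin cofactors and 0 of these clients.

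Other folding machines stood nearer to CCT. HSPD1 and HSPE1, the chaperonin and co-chaperonin of mitochondria, were both higher in both libraries with either scaling. HSPD1 was at 307 and 325 FPKM in shUSP16-1 and shUSP16-2, against 219 FPKM in shControl, and was called by voom (adjusted p = 0.0247 with the authors' totals and 0.0306 with sums of reads) but not by limma (adjusted p = 0.272). HSPE1 had log2 differences of 0.24 and 0.45. Of 15 heat shock genes 12 were higher and 2 lower in both (11 and 2 with sums of reads), the median was 0.29 in shUSP16-1 and 0.45 in shUSP16-2, and 7 of 15 were at least 25% above shControl in both, where 9.54% of tested genes were, or 4 of 15 with sums of reads, where 5% were. voom with either total called 3 of 15, HSPA8, HSPH1 and HSP90AA1, all higher, against 1.47% and 1% of tested genes called higher. HSPA8, the constitutive HSP70, was at 264 and 303 FPKM in shUSP16-1 and shUSP16-2, against 159 FPKM in shControl, and limma gave it a log2 difference of 0.82 with an SE of 0.12 (adjusted p = 0.261, and 0.0211 in the fit of protein-coding genes). HSPH1, an HSP70 exchange factor, was at 10.99 and 14.1 FPKM in shUSP16-1 and shUSP16-2, against 7.37 FPKM in shControl. HSPA1A, a stress-inducible HSP70, was lower, with log2 differences of -0.41 and -0.37 (its near copy HSPA1B, with which reads may be split, had 0.21 and 0.071), and BAG3 had -0.14 and -0.18, while HSF1, the factor that activates heat shock genes, had 0.21 and 0.22.

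The chaperonin-like genes did not share a direction. MKKS, a ciliary chaperonin-like gene, was at 2.54 and 3.03 FPKM in shUSP16-1 and shUSP16-2, against 1.93 FPKM in shControl, and BBS12 at 1.59 and 1.11 FPKM, against 1.77 FPKM. BBS10 was at 4.70 FPKM in shUSP16-1 and 6.59 FPKM in shUSP16-2, on either side of 6.11 FPKM in shControl.

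**Figure D4:**
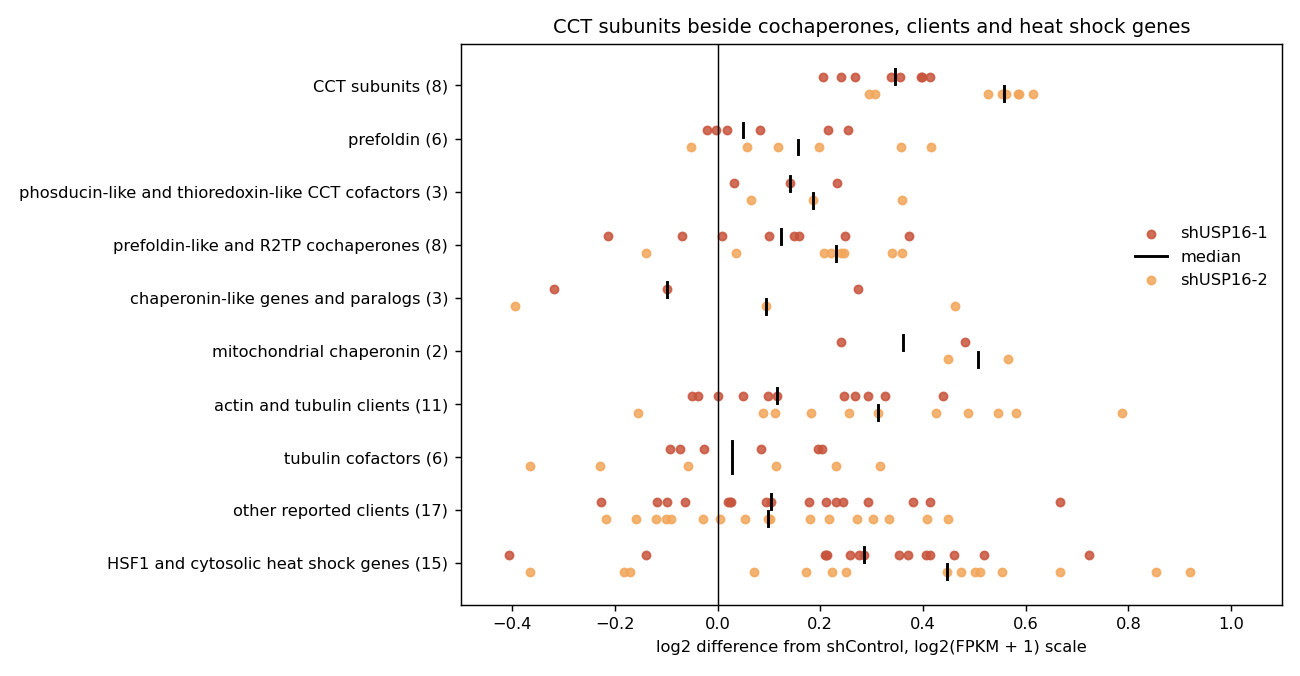
log2 difference from shControl on the log2(FPKM + 1) scale (x axis) of each tested gene in 10 groups (y axis, number tested in brackets), in shUSP16-1 and shUSP16-2; points are genes and black bars group medians. The CCT subunits have medians of 0.35 and 0.56 with every point above 0, beside 0.29 and 0.45 for the heat shock genes and 0.050 and 0.16 for prefoldin.

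The genes most like the CCT subunits were sought among the other 1889 protein-coding genes averaging 20 FPKM or more, by the distance of their 2 log2 differences from the subunit medians. With 3 libraries this is a description only. The 5 nearest were DNMT1, the maintenance DNA methyltransferase, SNRPD1, a core protein of spliceosomal particles, CSE1L, a nuclear export receptor, PA2G4 and PPA1, an inorganic pyrophosphatase, at distances from 0.00688 to 0.0249. DNMT1 was at 47.2 and 54.4 FPKM in shUSP16-1 and shUSP16-2, against 36.7 FPKM in shControl. Of the subunits themselves TCP1 lay nearest the medians, at 0.00943, and CCT4 and CCT7 farthest, at 0.288 and 0.283.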

How the data were processed

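The authors deposited FPKM values of 58735 genes in a column for each library, beside the length and position of each gene. The aligner, the counting and its strand setting are not given in the sources used. Mouse builds (GRCm38, mm10) are named in the submitters' processing notes, but 58724 of 58735 gene IDs and coordinates, those of the 8 members included, equal human GENCODE release 29 on GRCh38. Multiplying FPKM by gene length gave whole multiples of a step fixed within each library for 100% of values above 0 (tolerance 0.01 reads), and so whole reads. The totals behind the authors' FPKM were 1.01, 0.994 and 1.08 times the sums of reads in shUSP16-1, shUSP16-2 and shControl, by a scaling that no source names, so ratios of the subunits and USP16, and counts for neighbours and lists, are given with both; values of other genes use the authors' scaling.

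limma 3.58.1 (R 4.3.3) with a mean trend tested log2(FPKM + 1) over the 13852 genes averaging 1 FPKM or more; p-values were adjusted by Benjamini-Hochberg and called under 0.05. The pseudocount makes fold changes of low genes too small. Its 1 residual degree of freedom comes from the libraries labelled shUSP16, and the lone control is assumed to vary like them. The script was tested on simulated data for the direction of changes larger than those of the subunits. Whether differences as small as theirs would be called was not tested. Ratios and size counts use FPKM without a pseudocount. Members and lists were chosen with earlier results of these data known; the genes named per list were at most 4, ranked by the smaller of their changes in the libraries labelled shUSP16, and others named (such as ACTB, ACTG1, TUBB4A, CDC20, BBS10, HSPA1A, HSPA1B, BAG3 and HSF1) were chosen after their values were seen. Promoter windows are from RefSeq. Alternatives were pseudocount, filters, scaling, protein-coding genes, trend, voom and leaving out each library labelled shUSP16. Tables and figures were made in Python 3.11.15 with pandas 2.3.3, numpy 2.4.6, matplotlib 3.10.9 and, for intervals, scipy 1.17.1.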

Additional observations from a re-analysis of the deposited data

How the results depend on the processing

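Of the 97 log2 differences of subunits under alternatives, 40 equal the reported value by construction, since filters and trend settings change the test and not the difference. The other 57 were above 0 in 57 cases, from 0.15 for CCT4 with equal sums of reads to 0.61 for CCT2 in shUSP16-2 alone. limma called 0 genes in the fit reported, 1688 with no filter on low values (0 of them higher), 13 with a mean of at least 5 FPKM, 48 among protein-coding genes, and with voom 348 with the authors' totals (204 higher) and 557 with sums of reads (139 higher). The subunits called went from 0 to 2 with voom and the authors' totals, and were 0 under the other 9 alternatives. The count at least 25% above shControl in both libraries was 5, against 1 with equal sums of reads (CCT8) and 3 with median-ratio scaling. Without a library labelled shUSP16, and with the authors' scaling, that count was 5 to 6 and the count at 1.5 times was 0 to 3 (3 without shUSP16-1). The median log2 difference was then 0.35 to 0.56 and the ratio of summed FPKM was 1.2497 to 1.3967. Called counts had no value with 1 library against 1. The cause of these changes was not tested. Scaling moved the median of all tested genes from 0.042 to -0.048. No paired analysis was possible because shControl has a single library and no number in its label. The lone control, and the ratio of USP16 in shUSP16-2, whose interval takes in 1 with the authors' scaling alone, limit every comparison; depth does not, with 4459 reads or more for each subunit.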
